A study of Mus musculus with 3 samples.

Results

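Genes of iron uptake, storage and export were studied in the mouse choroid plexus epithelium, abbreviated CPE, which covers the choroid plexus of the brain and secretes cerebrospinal fluid. The 10 genes were chosen by name: Trf, Tfrc, Tfr2, Hfe, Slc11a2, Fth1, Ftl1, Slc40a1, Heph and Cp. All 10 were on the array, with 14 of its 41174 probes. The gene name in the scanner files matched for 13 probes, and the Tfr2 probe, listed there under the older symbol Trfr2, was found through its transcript identifier.

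CPE cells of 3 healthy adult C57BL/6 mice, female by the study's description, were laser dissected from brain cryosections. Their RNA was amplified and hybridised to 3 Agilent whole-genome arrays with 2 dyes, 1 array per mouse. The red dye (Cy5) labelled the CPE. The green dye (Cy3) labelled, on each array, 1 reference RNA prepared from C57BL/6 eyes, taken from choroid and its adjoining retinal pigment epithelium (RPE). Dyes were not swapped. The mice form 1 group, so the design allows a ratio of CPE over the reference and a rank of each gene within the CPE. Any dye bias of a probe is therefore part of its ratio, and the reference is 1 RNA whose own biological spread is not in the error. Fewer cells of a type and less RNA per cell cannot be told apart in these samples.

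The labelled tissue was checked against markers. Of 11 tested CPE markers, 10 were higher in CPE than in the reference, with a median log2 ratio of at least 3.81 (Enpp2 and Ttr were saturated in CPE and counted at their measured ratio, a lower limit), from 0.14 for Otx2 to 5.42 for Kl. Of 11 RPE and melanocyte markers, 10 were lower, with a median of -5.26, from -8.17 for Tyrp1 to 0.46 for Best1. All 9 photoreceptor markers (median -4.71) and 5 of 6 stromal markers (median -1.80) were also lower in CPE. The CPE signal was well above background for 58.5%, 46.0% and 85.6% of probes in mice 1, 2 and 3. Dim probes were brighter on the array of mouse 3, where the median CPE intensity was 682 against 138 and 103 on the others.

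Cells take up iron bound to transferrin through transferrin receptors, and iron that is free of transferrin through metal carriers. Inside the cell, iron not in use is held in ferritin, a shell of heavy and light chains, and it leaves through the exporter ferroportin with the help of copper-dependent ferroxidases. The choroid plexus forms the barrier between blood and cerebrospinal fluid, and its epithelium is a known site of transferrin synthesis and of iron passage into the brain.

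Relative to the reference, Hfe was higher in CPE, and Trf, Tfrc and Ftl1 were lower. Hfe, Trf and Tfrc passed under all 11 alternative settings of the analysis, and Ftl1 under 8. Before normalization Ftl1 was brighter in CPE than in the reference in mice 1 and 3. By its value Fth1 would also pass as lower, but its CPE spots were saturated, so its ratio is no measure of a difference. The other 5 genes (Tfr2, Slc11a2, Slc40a1, Heph and Cp) did not pass. A gene passed at a limma adjusted p under 0.05 and at least 2-fold, by the brightest of its probes. Over all 25844 tested probes, 17.3% passed, of which 7.09% of the tested were higher and 10.2% lower. The median log2 ratio over the 9 genes without Fth1 was -0.04, as over all tested probes, and it was -0.46 with Fth1 at its measured value. Within the CPE, 6 of the 10 genes ranked above the 90th percentile, the class called high expression, which by its definition holds 10% of all probes. Those were Fth1, Ftl1, Trf, Hfe, Cp and Heph. The high ranks were shared with the reference, where Fth1, Ftl1, Trf, Cp and Heph were also above the 90th percentile. There Tfrc was above it too (91.6th percentile), and Hfe was not (86.8th). Each gene was ranked by its brightest probe, which can raise the count beside that share. The class ranks the brightness of spots, and 2 genes of unequal rank need not differ in transcript number.

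**Figure D1:**
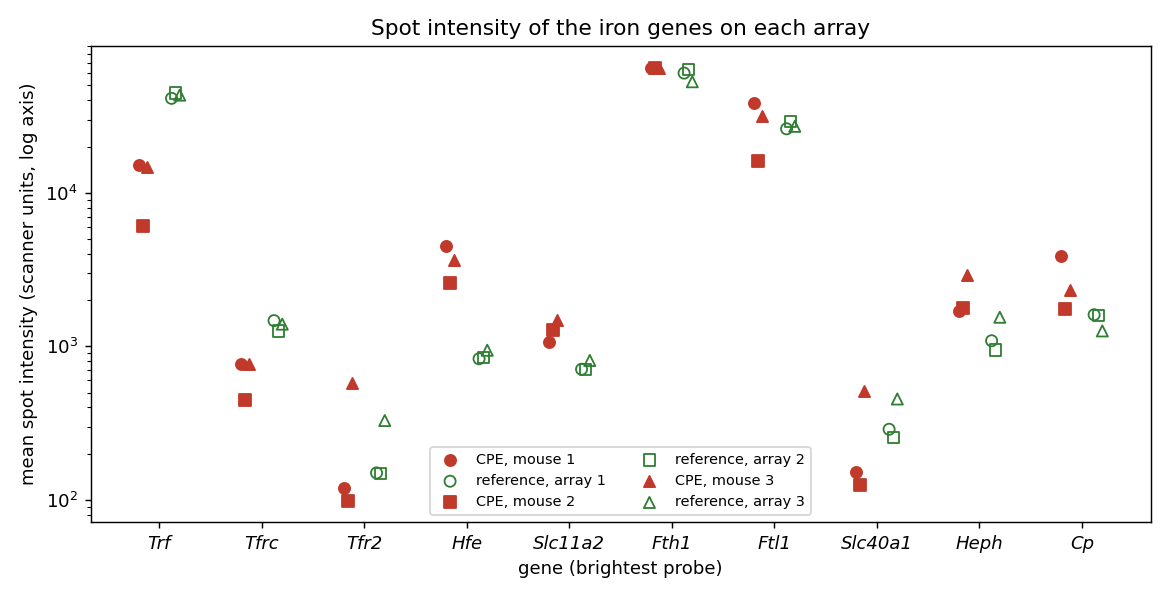
Mean spot intensity (scanner units, log axis) of the brightest probe of each gene, with filled red symbols for the CPE of each mouse and open green symbols for the reference on the same array. Fth1 lay at the scanner's ceiling in CPE, Trf was brighter in the reference on each array, and Hfe was brighter in CPE on each array. Tfr2 and Slc40a1 were dim. Their readings were higher on the array of mouse 3, where their CPE readings lay below the median CPE intensity of 682. The Slc40a1 reference reading on that array, 454, lay above the median reference intensity of 378.

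The 250 bases before each annotated transcription start were read from RefSeq (GRCm38.p6) for 6 of the 10 genes, namely Hfe, Tfrc, Tfr2, Ftl1, Fth1 and Cp. Entries for Trf, Heph, Slc11a2 and Slc40a1 were not used here. The last 150 bases before the start are shown for Hfe, Tfrc and Ftl1, the genes with an entry whose ratio passed without saturation. The promoters of Hfe, which was higher, and of Tfrc and Ftl1, which were lower, can thus be read side by side. The call of Ftl1 did not hold under each setting. Both strands were searched for the letters TATAA as found in the TATA box, for CCAAT as the known binding motif of the factor NF-Y, for GGGCGG as that of Sp1, for ACGTG as the core of the hypoxia response element and for TGACNNNGC as the core of the antioxidant response element. Capitals mark a match on either strand.
Hfe (chr13:23710855-23711004, minus strand): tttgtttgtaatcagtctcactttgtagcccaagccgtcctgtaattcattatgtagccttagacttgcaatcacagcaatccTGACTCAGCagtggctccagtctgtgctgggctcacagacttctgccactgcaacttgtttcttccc
Tfrc, first of 2 annotated starts (chr16:32608746-32608895, plus strand): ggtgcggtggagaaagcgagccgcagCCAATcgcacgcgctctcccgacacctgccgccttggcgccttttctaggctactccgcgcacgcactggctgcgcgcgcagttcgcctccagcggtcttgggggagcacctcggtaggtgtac
Ftl1 (chr7:45459887-45460036, minus strand): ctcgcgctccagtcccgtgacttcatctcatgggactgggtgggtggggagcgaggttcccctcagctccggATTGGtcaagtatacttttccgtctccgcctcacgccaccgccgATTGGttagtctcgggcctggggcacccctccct
The window of Hfe held the TGACNNNGC letters once, at position -67 from the start, and none of the other motifs. In the Ftl1 window CCAAT was found on the opposite strand at positions -78 and -34. The first Tfrc window held CCAAT at position -124. Beyond the letters shown, the 250 bases of Ftl1 held GGGCGG on the opposite strand at -183, and those before the second Tfrc start held TATAA at -172, GGGCGG at -35 and ACGTG at -228. Over 250 bases, 42% of the Hfe promoter was G or C, against 64.8% for Tfrc and 65.2% for Ftl1 and a median of 52.4% over 32851 promoters. CG pairs numbered 1 in Hfe, 25 in Tfrc and 17 in Ftl1, with a median of 6 over all promoters. TGACNNNGC occurred in 10.2% of all promoters and CCAAT in 33.8%. A match describes letters and is not evidence of binding.

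Trf encodes transferrin, the protein that carries iron in blood and cerebrospinal fluid. Its probe (chr9:103073389-103074004 on mouse build mm8, the build of the scanner files) read 15229, 6063 and 14817 intensity units in the CPE of mice 1, 2 and 3. The reference read 41228, 44656 and 43263 on the same arrays. Each CPE value was below each reference value. Before normalization the channels did not overlap for Slc11a2, Heph and Cp either, whose mean log2 ratios were 0.09, 0.09 and -0.04. A lack of overlap in intensity is thus no measure of a difference, and its share over all probes was not counted. After background correction and loess normalization, the log2 ratios of Trf were -2.83, -3.87 and -2.42. Their mean was -3.04 (SE 0.27, n = 3, limma adjusted p = 0.000149), so Trf was 8.25-fold lower in CPE than in the reference. It passed under all 11 alternative settings, with log2 ratios from -3.35 to -2.12, the latter with median centring in place of loess. Trf was nevertheless among the brightest CPE probes, at the 98.5th percentile, while in the reference it stood at the 99.96th. Cells of the RPE are known to make transferrin. The summed intensity of the 11 RPE and melanocyte markers was 170750 to 199106 in the reference and 7084 to 13345 in CPE. The reference sum is a lower limit, since Dct was saturated there on all 3 arrays. Oligodendrocytes are another known source. Of their 7 tested markers 3 were higher and 1 was lower in CPE, from -3.69 for Mal to 1.47 for Cldn11, and the 8 markers on the array summed to 7528 to 13068 in CPE and 6711 to 7788 in the reference. The part of these cells in the Trf values was not tested.

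Tfrc encodes transferrin receptor 1, the main route of transferrin-bound iron into cells. It read 762, 445 and 766 in CPE and 1469, 1257 and 1394 in the reference. The log2 ratios of -1.85, -1.76 and -2.17 lay close together. Their mean of -1.92 (SE 0.16, n = 3, limma adjusted p = 0.000122) corresponds to a 3.79-fold lower level in CPE. Tfrc was moderate in CPE (76.7th percentile) and high in the reference (91.6th percentile). Young red blood cells carry much of this receptor, and of 5 red blood cell markers 3 were lower in CPE, from -3.29 for Hbb-b1, whose reference spot was saturated on 2 arrays, to 0.17 for Slc4a1, with sums of 27723 to 55376 in CPE and 96226 to 103462 in the reference. Their part in the Tfrc values was not tested.

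Tfr2, transferrin receptor 2, is known as an iron sensor of liver and of red cell precursors. Its probe read 119, 98.8 and 575 in CPE and 150, 149 and 328 in the reference. The CPE signal was well above background on 2 of 3 arrays, and the high values on the array of mouse 3 were shared by both channels. The mean log2 ratio was 0.11 (95% interval -0.25 to 0.47, limma adjusted p = 0.61), and Tfr2 was in the low class of CPE (41.4th percentile).

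Hfe encodes a protein related to MHC class I that binds transferrin receptors and takes part in iron sensing. Its brightest probe (chr13:23711518-23711577, mm8) read 4480, 2593 and 3652 in CPE and 830, 844 and 943 in the reference. The log2 ratios were 1.44, 1.21 and 1.18, with a mean of 1.28 (SE 0.15, n = 3, limma adjusted p = 0.000658), which is 2.43-fold higher in CPE. The other Hfe probe lies 1454 bases closer to the 3′ end of the gene and gave 1.49, 1.46 and 1.13, with a mean of 1.36 (SE 0.16, limma adjusted p = 0.000591). Both probes gave the same direction in each mouse, with percentiles in CPE of 94.8 (high class) and 88.7 (moderate class). Hfe stayed past the threshold under all 11 alternative settings of the analysis, with log2 ratios of the brightest probe from 1.20 to 1.92.

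**Figure D2:**
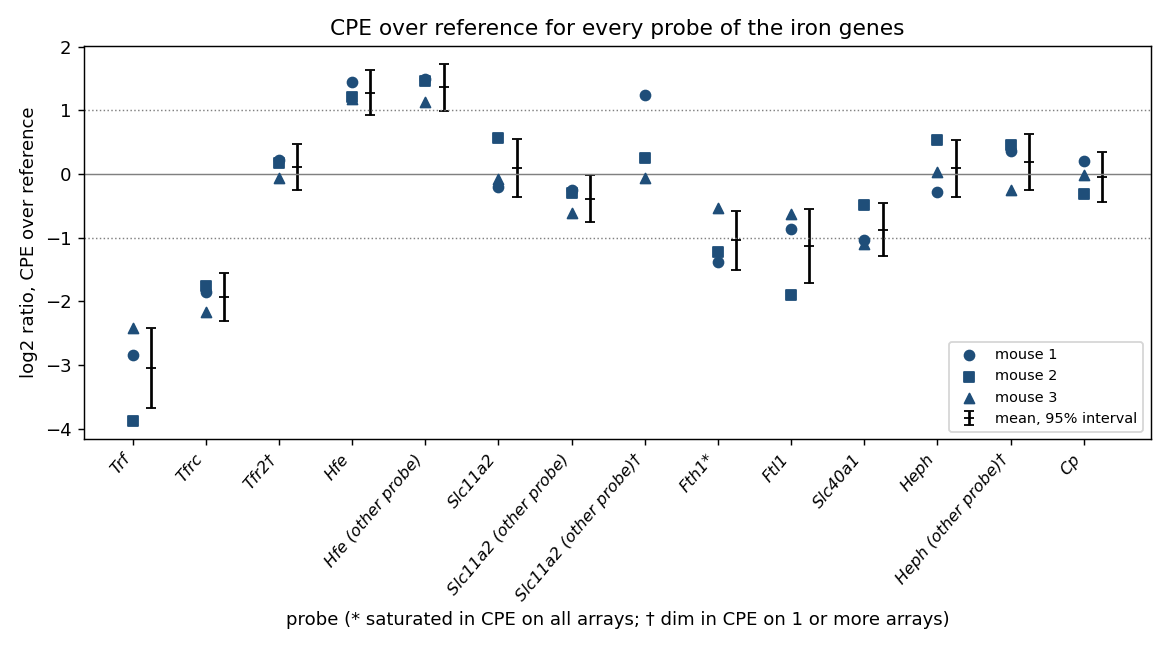
Log2 ratio of CPE over reference for the 14 probes, with 1 symbol per mouse and the mean with its 95% interval at the right (no mean for the Slc11a2 probe that was not tested). Dotted lines mark 2-fold. Trf and Tfrc lay below the lower line in each mouse and both Hfe probes above the upper line, while mouse 2 lay apart from the others for Trf and Ftl1.

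Slc11a2 encodes the divalent metal carrier DMT1, which brings ferrous iron across membranes. Its brightest probe read 1073, 1273 and 1473 in CPE and 709, 706 and 809 in the reference. The intensities did not overlap before normalization, but after loess the log2 ratios were -0.21, 0.57 and -0.08, on both sides of 0. The mean was 0.09 (95% interval -0.36 to 0.54, limma adjusted p = 0.733). A second probe, 5014 bases of genome upstream, had a mean of -0.39 (SE 0.16, limma adjusted p = 0.0924), and the probe farthest upstream, 22183 bases away, was well above background on 2 arrays per channel and was not tested. The percentiles of the 3 probes in CPE were 86.5, 74.1 and 39.2, so the class of this gene depends on the probe. DMT1 is made in forms with different first and last exons, and which form each probe detects was not determined.

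**Figure D3:**
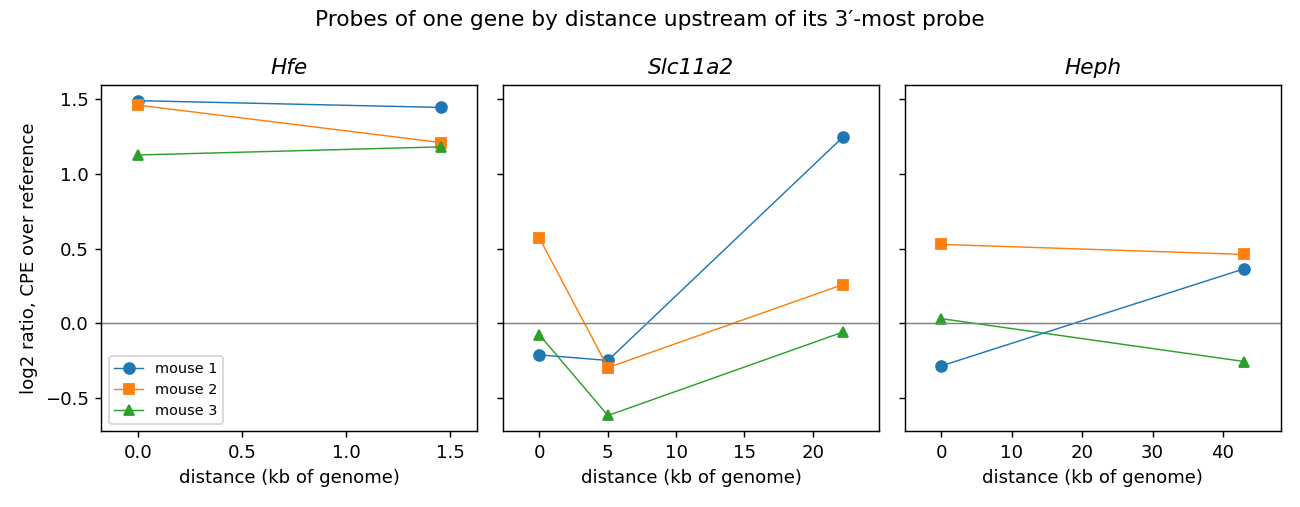
Log2 ratio of CPE over reference per mouse for the genes with several probes, against the distance in kb of genome upstream of the 3′-most probe. Both Hfe probes lay above 1 in each mouse, and the Slc11a2 and Heph probes spread around 0. The upstream Heph probe was not well above background in CPE, and the Slc11a2 probe farthest upstream was dim on 1 array.

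The ferritin genes had the brightest probes of the 10 genes in CPE. In the further list described below, the probe of Pcbp2, an iron chaperone, stood at the same percentile as that of Ftl1 (99.6). Fth1, the heavy chain with ferroxidase activity, was saturated in the CPE of each mouse, with readings of 65393, 65393 and 65395 at the scanner's ceiling. It shared that ceiling with other probes (45, 24 and 18 saturated CPE probes in mice 1, 2 and 3), so its rank among them is not defined. The reference read 60202, 63707 and 52868 and was not saturated. CPE was thus the brighter channel on each array before normalization, while the measured log2 ratios after loess were -1.38, -1.23 and -0.53 (mean -1.04, limma adjusted p = 0.00546). The saturated reading is a lower limit of the CPE signal, so no fold is given, and Fth1 is left out of statements on direction.

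Ftl1, the light chain, read 38552, 16217 and 31711 in CPE and 26103, 29117 and 27093 in the reference. CPE was brighter in mice 1 and 3 and dimmer in mouse 2, so the intensities overlapped. After loess the log2 ratios were -0.86, -1.89 and -0.63, with a mean of -1.13 (SE 0.25, n = 3, limma adjusted p = 0.00974), 2.19-fold lower in CPE. This call did not hold under each setting. It was lost with the arrays centred on their median in place of loess (-0.18, limma adjusted p = 0.74), with the scanner software's own ratio (-0.96, limma adjusted p = 0.0598) and without mouse 2 (-0.75, limma adjusted p = 0.0179, under 2-fold). Over 11 alternatives the limma adjusted p ran from 0.00382 to 0.74. Ftl1 stood at the 99.6th percentile in CPE and the 99.9th in the reference. Ferritin genes have near-identical copies elsewhere in the genome, whose transcripts the probes may also bind.

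Slc40a1 encodes ferroportin, the known exporter of iron from cells. It read 153, 126 and 515 in CPE and 288, 256 and 454 in the reference, so CPE was the dimmer channel in mice 1 and 2 and the brighter one in mouse 3. The log2 ratios after normalization were -1.03, -0.49 and -1.10. The mean of -0.87 (SE 0.18, n = 3, limma adjusted p = 0.00713) was below 0 but under 2-fold. The gene passed as lower under 3 of 11 alternatives, namely the scanner software's ratio (-1.45, limma adjusted p = 0.0143), a smaller offset in the background correction (-1.07, limma adjusted p = 0.00863) and without mouse 2 (-1.07, limma adjusted p = 0.00151), and the adjusted p over all 11 ran from 0.00151 to 0.0574. Its rank in CPE differed between mice, with percentiles of 51.0, 57.9 and 28.1 in mice 1, 2 and 3, and its class was low (46.6th percentile) against moderate in the reference (65.7th). Macrophages are rich in ferroportin. Of 6 macrophage markers 4 were lower in CPE, from -3.40 for Lyz2 to 0.56 for Cx3cr1. Their sums were 10237 to 13576 in CPE and 38900 to 45264 in the reference. Lyz2 alone read 6668 to 8998 in CPE and 33465 to 40019 in the reference, so the sums mostly reflect that gene. The part of macrophages in the Slc40a1 values was not tested.

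The ferroxidases Heph (hephaestin) and Cp (ceruloplasmin) oxidise the iron that ferroportin releases so that transferrin can bind it. Heph read 1700, 1777 and 2927 in CPE and 1086, 946 and 1546 in the reference. Its log2 ratios were -0.28, 0.53 and 0.03 after normalization, with a mean of 0.09 (95% interval -0.35 to 0.54, limma adjusted p = 0.738). A second Heph probe, 42989 bases of genome upstream, was not well above background in CPE on any array, so no fold is given. Cp read 3863, 1755 and 2311 in CPE and 1606, 1577 and 1260 in the reference, each CPE value above all reference values. Its log2 ratios of 0.20, -0.31 and -0.01 averaged -0.04 (95% interval -0.43 to 0.34, limma adjusted p = 0.86). Both genes were in the high class in CPE, at the 91.5th percentile for Heph and the 92.7th for Cp, and both stood near the same rank in the reference, at 90.4 and 92.3. The class of Heph depends on the probe and the mouse, since its other probe was at 18.0 and the brightest one at 87.4 in mouse 1.

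**Figure D4:**
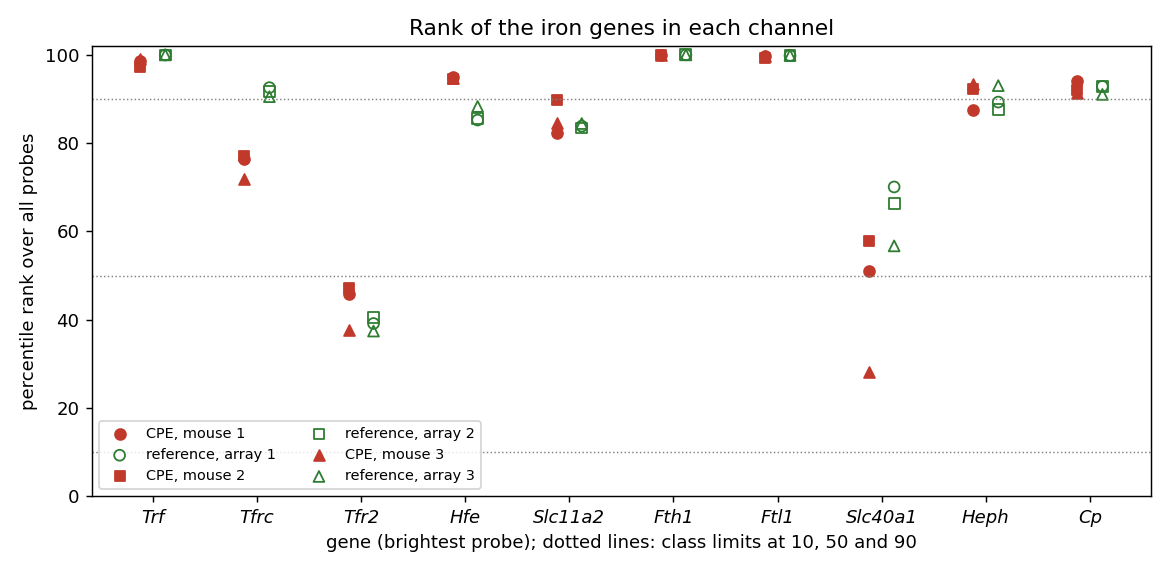
Percentile rank over all probes for the brightest probe of each gene, per mouse in CPE (filled red) and per array in the reference (open green). Fth1, Ftl1 and Trf lay at the top in both channels, Tfrc lay lower in CPE than in the reference on each array, Hfe higher, and Slc40a1 spread from 28.1 to 57.9 in CPE.

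The order of mean ranks in CPE was Fth1, Ftl1, Trf, Hfe, Cp, Heph, Slc11a2, Tfrc, Slc40a1 and Tfr2. The ranks of Hfe (94.5 to 94.9) lay above those of Cp (91.4 to 94.0) in each mouse, and those of Heph (87.4 to 93.4) above those of Slc11a2 (82.2 to 89.7) in each mouse. Cp and Heph changed places between mice, as did Slc40a1 and Tfr2 (37.5 to 47.2). Only 3 of the 6 genes of the high class (Fth1, Ftl1 and Trf) remained above the 90th percentile when the ranking was restricted to probes well above background in CPE on all arrays.

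The CPE values come from separate mice, while the reference is 1 RNA hybridised 3 times, so its spread is technical. Over the 10 genes the median SD of the log2 level was 0.389 in CPE and 0.0846 in the reference, beside 0.38 and 0.194 over all probes well above background in both channels. These SDs depend on the normalization between arrays. With each channel centred on its median they were 1.21 and 0.431, and without mouse 1 the reference value was 0.0502. Mouse 2 had the lowest log2 ratio for Trf, Ftl1 and Cp. The log2 ratio of mouse 2 minus the mean of the other mice was -1.25 for Trf and -1.15 for Ftl1. Both lay below the 5th percentile of this difference over all probes measured in both channels, which was -0.91, and the 95th percentile was 0.73. The difference was 0.71 for Slc11a2, 0.66 for Heph and 0.58 for Slc40a1, between these limits. The array of mouse 2 also had the smallest share of CPE probes above background, and the part of the array in these values was not tested.

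A further list held 40 genes of iron control, transport, mitochondrial iron use and haem, of which 38 were on the array and 30 were tested. Of these, 4 were higher in CPE, 3 were lower and 23 did not pass, beside 7.09% of all tested probes higher and 10.2% lower. The share of 7 in 30 is near that of all probes. The median log2 ratio was 0.26 beside -0.04 over all tested probes. In the high class of CPE were 13 of the 38, each by its brightest probe, beside 10% of all probes by definition. Taking the brightest probe of a gene can raise such a count, so these shares are not on the same footing. The genes that were higher had different known roles. Slc22a17, a receptor for the siderophore carrier lipocalin 2, read 26354, 6360 and 30320 in CPE and 1389, 1171 and 2332 in the reference, with a log2 ratio of 2.60 (SE 0.24, limma adjusted p = 0.000198). The log2 ratio was 2.08 (SE 0.20) for Slc46a1, a carrier of haem and folate, and 1.90 (SE 0.18) for Bmp6, a ligand that controls hepcidin in liver. Hmox1, the inducible haem oxygenase that frees iron from haem, had a log2 ratio of 1.26 (SE 0.22). All 4 were brighter in CPE than in the reference in each mouse.

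The genes that were lower were Slc39a8, an importer of zinc and other metals including iron, at -1.78 (SE 0.20), Ltf, which encodes the iron-binding lactoferrin, at -1.75 (SE 0.24), and Flvcr2, a transporter of the haem exporter family, at -1.61 (SE 0.19). Ltf was well above background in CPE on 2 of 3 arrays, so its ratio rests on dim signal. Slc39a8 read 193, 213 and 584 in CPE, at the 57.6th percentile. A second tested probe did not pass for Slc39a8 (-0.49, limma adjusted p = 0.0968) or for Ltf (-0.85, limma adjusted p = 0.00483, under 2-fold). Of the genes that were higher, Slc22a17 and Bmp6 had a second probe that passed, at 2.19 and 1.40. The genes of iron-dependent control in the cell did not pass, with log2 ratios of -0.17 for Aco1 and 0.39 for Ireb2, which encode the iron regulatory proteins, and -0.68 for Fbxl5, an iron-sensing subunit that acts on them. Ncoa4, the receptor for the breakdown of ferritin, had a log2 ratio of 0.26. Other tested probes of these genes did not pass either, and some had the opposite sign. They gave 0.74 for Aco1, -0.01 and 0.34 for Ireb2, -0.99 and -0.51 for Fbxl5, and -0.81 and -0.38 for Ncoa4. Hamp, which encodes the hormone hepcidin, was well above background in CPE on 1 array and was not tested, and Hpx (hemopexin) was so on none. With median centring in place of loess, 11 of the 30 genes were higher and 2 lower, and Flvcr2 was no longer past the threshold (-0.95, limma adjusted p = 0.0318, range over 11 alternatives 8.68e-05 to 0.0318). The sizes also moved with the settings, from 2.37 to 3.35 for Slc22a17, 1.88 to 2.67 for Slc46a1, 1.71 to 2.60 for Bmp6 and -2.86 to -1.47 for Ltf.

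**Figure D5:**
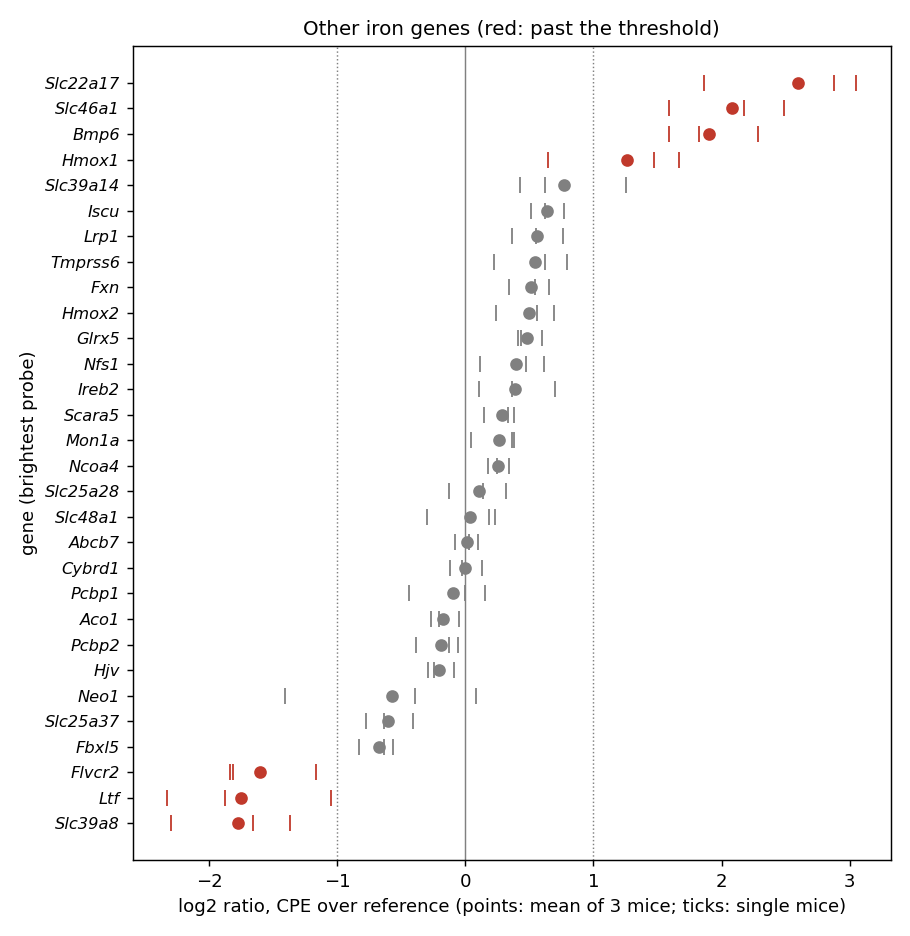
Log2 ratio of CPE over reference for the 30 tested genes of the further list, with the mean of 3 mice as a point and single mice as ticks. Red marks the 4 genes that were higher and the 3 that were lower past the threshold, and dotted lines mark 2-fold.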

How the data were processed

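The deposited scanner files give, per spot and dye, the intensity on a linear scale, its local background and flags. The authors wrote them with version 9.5.3.1 of Agilent's Feature Extraction software. A log10 ratio of the processed intensities, red over green, is also given per the file headers. A deposited series table holds log2 values normalized between arrays by the authors, and set against the scanner files these were levels of the CPE channel (rank correlation over probes 0.998, 0.998 and 1.000). The submitters' processing notes list R 2.14.0 and limma, and the authors' methods name Aquantile and no background correction.

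Values were computed with R 4.3.3 and limma 3.58.1. Spots that were controls or outliers were removed, and replicate spots of a probe were averaged. Ratios were taken after normexp background correction (offset 50) and loess within arrays, for probes that exceeded background clearly (the scanner flag) in the same channel of all 3 arrays. The limma model had an intercept alone, with Benjamini-Hochberg adjustment over all tested probes, and a threshold of adjusted p under 0.05 and 2-fold. It was run on simulated normal noise with known shifts. That simulation holds no dye bias, saturation or shared array effect and cannot test for these. For probes saturated or dim on every array of a channel only a bound was considered. Classes followed the study's methods, with mean red intensity on the log2 scale without background correction, Aquantile, the mean over mice and the rank over all probes, cut at the 90th, 50th and 10th percentiles. SDs between mice were taken after loess and Aquantile. The brightest probe over both channels stood for a gene. The 10 genes were all named, with those of the further list past the threshold and the lowest and highest of a marker list.

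The genes and lists were chosen with earlier results of these data known. Pcbp2, Fbxl5, Aco1, Ireb2, Ncoa4, Hamp and Hpx were named after their values were seen. The SEs, intervals and p-values are moderated by limma. The variance of a probe between the 3 mice numbered in the labels is drawn towards that of all tested probes. For a probe whose mice differ more than most, as for Trf and Ftl1, the printed SE is smaller than its own spread gives. For a probe whose mice differ less, it is larger. The number of arrays limits the precision. Coordinates are those of the scanner files (mm8), and exons and introns are not given because mm8 gene models were not used. Each array lay on its own slide, so slide and mouse cannot be told apart. The study's human arrays were not analysed here.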

Additional observations from a re-analysis of the deposited data

How the results depend on the processing

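The ratios were recomputed under 11 alternatives and the ranks under 9. Of 467 single ratios 448 stayed on their side of the threshold, 8 fell below it and 11 newly passed it. No ratio past the threshold changed sign, while 25 of the 314 that were past it in neither setting did. Hfe, Trf and Tfrc passed under all 11. With median centring in place of loess, which moved the median over all tested probes from -0.04 to 0.09, 2 iron genes were lower in CPE (4 before, the saturated Fth1 included) and 11 genes of the further list were higher (4 before), and 67.0% of the called probes were higher against 41.1% after loess. Flvcr2 then fell below the threshold (-0.95, limma adjusted p = 0.0318, range over alternatives 8.68e-05 to 0.0318). The scanner software's ratio called 6755 probes against 4462, and with it Ftl1 was not called and Slc40a1 was. Ranking only probes above background in CPE on all arrays left 3 iron genes in the high class (6 before), since dim probes left the ranking, and the deposited table, which lists no value for Fth1, gave 5. Median centring of each channel in place of Aquantile gave a median SD of 1.21 in CPE and 0.431 in the reference. The cause was not tested.

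Leaving out 1 mouse at a time gave 4022 to 5352 called probes, 1 iron gene higher in each case, 3 to 4 lower (3 in each case without the saturated Fth1), 4 higher and 3 lower of the further list, 6 iron genes in the high class, and a median SD of 0.261 to 0.301 in CPE and 0.0502 to 0.115 in the reference. Without mouse 2, Ftl1 lost its call and Slc40a1 gained one. A background surface in place of the local background was chosen after seeing the data and changed no call of an iron gene. No paired analysis was possible because the mice form 1 group, and the slide could not be fitted as a block since each array lay on its own. Signal over background limits Tfr2, Slc40a1 and the upstream probes of Slc11a2 and Heph.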
